A study of Mus musculus with 1 sample.

Results

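The genes described here are the 7 that encode the sterol-sensing machinery of the SREBP pathway: *Scap*, *Srebf1*, *Srebf2*, *Insig1*, *Insig2*, *Mbtps1* and *Mbtps2*. They were taken by symbol from the 32285 genes listed in the table, and all 7 were found. The study asked how loss of SCAP in the pancreas affects its cells. The library analysed carried the genotype Scap f/f, labelled wildtype, in which *Scap* is floxed and serves as the control. Pancreata of 5 to 6 mice at 2 weeks of age, both sexes alike in number, had been pooled before enzymatic dissociation and removal of dead cells. It is therefore 1 sample without a replicate, the animals of the pool cannot be told apart, and the knockout library was not analysed here. Intervals cover counting error only, and no test between animals or genotypes was possible.

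SCAP is a membrane protein of the endoplasmic reticulum (ER) that binds the SREBP transcription factors, encoded by *Srebf1* and *Srebf2*, and escorts them to the Golgi in vesicles coated with COPII. When sterols are plentiful, the INSIG proteins hold SCAP in the ER. In the Golgi, the site-1 protease (*Mbtps1*) and then the site-2 protease (*Mbtps2*) cut the SREBP precursors, which frees the part that enters the nucleus. SREBP-2 mainly drives genes of cholesterol synthesis and uptake, and SREBP-1 mainly those of fatty acid synthesis. *Insig1* is itself an SREBP target gene, whereas *Insig2* is controlled in other ways. The same proteases cut ATF6 and factors of the CREB3 family, which are anchored in the ER and act in secretory cells and ER stress.

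The table held 11789 barcodes and 51540177 UMIs (unique molecular identifiers, 1 for each transcript captured). The 10947 barcodes that lay above 800 and below 100000 UMIs and had a mitochondrial share under 15% were kept, with a median of 2650 UMIs. Cells were placed in classes by how many different marker genes they held, and a class is named after its gate. These classes were rebuilt here and are not the authors' annotation. There were 5758 fibroblast-like, 903 acinar-like, 897 T cell-like, 406 red blood cell-like, 388 B cell-like, 349 mesothelial-like, 231 endothelial-like, 127 mural-like, 63 Schwann-like, 60 duct-like and 55 dendritic cell-like cells. In every class gated by 10 markers, fibroblasts aside, all 10 were at least 2-fold above their level in fibroblast-like cells. This follows largely from the gates, which select cells by these markers, and gives no separate support to the class names. A further 1643 cells passed no gate, and 67 fell in 5 classes of under 50 cells. Of the dendritic cell-like cells, 26 held just the 3 markers that the gate requires. Mesothelial-like and duct-like cells also held a median of 5 and 4 fibroblast markers, and the part of these in the levels below was not tested.

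A level below is the sum of a gene's UMIs over a class per 1000000 UMIs of the class (CPM), with its exact 95% Poisson interval in parentheses. Together the 7 genes had 13073 UMIs in kept cells, or 266 CPM. After each cell was thinned to 800 UMIs, 22.1% of fibroblast-like cells (21 to 23.1) held at least 1 UMI of them, at a median depth of 2760 UMIs before thinning. In red blood cell-like cells, which should make little of these transcripts and had a median of 1452.5 UMIs, the share was 1.72% (0.696 to 3.52). That class held 16 UMIs of the 7 genes in all, beside globin transcripts that took 78.6% of its UMIs. Free RNA at the rate set by its digestive enzyme transcripts, 9.68% of the library profile, would give 18, so its counts did not exceed this estimate. A rate set by other transcripts could be lower and was not computed, so the source of these UMIs stays undecided. The same estimate gave 50.3 of 493 UMIs in T cell-like cells and 23.7 of 188 in B cell-like cells.

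The starts of *Insig1* and *Insig2* are shown because the former is known as an SREBP target and the latter is not, and that of *Srebf2* because among windows of the 7 genes it alone matched the core of the sterol element. *Insig1* lies at chr5:28071363-28078662 on the forward strand and *Insig2* at chr1:121304353-121332589 on the reverse strand of GRCm38. Each sequence runs from 250 bases before to 50 bases after an annotated start, 5′ to 3′ on the gene's strand. They are RefSeq sequences of GRCm38.p6 at chr5:28071162-28071461, chr1:121332540-121332839 and chr15:82147019-82147318. Capitals mark matches on either strand to the E-box CACGTG, the CCAAT box CCAAT and the core TCACNCCA.
Insig1 start: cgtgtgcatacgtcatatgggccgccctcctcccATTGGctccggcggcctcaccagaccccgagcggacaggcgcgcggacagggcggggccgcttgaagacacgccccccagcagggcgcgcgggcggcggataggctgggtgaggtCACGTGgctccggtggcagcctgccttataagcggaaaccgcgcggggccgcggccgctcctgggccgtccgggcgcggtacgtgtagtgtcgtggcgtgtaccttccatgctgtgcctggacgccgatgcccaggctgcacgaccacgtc
Insig2 start, 1 of 3: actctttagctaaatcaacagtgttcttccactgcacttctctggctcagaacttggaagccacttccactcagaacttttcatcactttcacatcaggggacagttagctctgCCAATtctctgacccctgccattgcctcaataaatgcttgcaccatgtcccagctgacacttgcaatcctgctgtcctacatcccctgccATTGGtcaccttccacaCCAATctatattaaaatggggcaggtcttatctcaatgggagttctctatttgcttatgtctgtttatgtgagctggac
Srebf2 start: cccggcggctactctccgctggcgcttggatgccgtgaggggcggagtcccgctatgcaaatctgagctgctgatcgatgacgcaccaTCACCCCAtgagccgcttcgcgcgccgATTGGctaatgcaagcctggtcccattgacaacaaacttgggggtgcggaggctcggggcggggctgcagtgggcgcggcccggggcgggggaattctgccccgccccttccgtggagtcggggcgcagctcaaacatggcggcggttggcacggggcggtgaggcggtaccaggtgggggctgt
The *Insig1* window held an E-box 101 bases and a CCAAT box 216 bases before the start. The *Insig2* window shown held 3 CCAAT boxes and no E-box. The gene's other annotated starts lie 4565 and 4911 bases downstream, and their windows held neither motif, so the CCAAT matches depend on the start chosen. The *Srebf2* window held the core as TCACCCCA 162 bases before the start and a CCAAT box 135 bases before it. Over 32851 windows of this length, 4.36% held the core, 7.15% the E-box and 37.4% the CCAAT box. A match describes letters in a window, and 3′ counting does not show which start a transcript used.

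*Insig1* had its highest CPM in acinar-like cells and was low in lymphoid and mural-like cells. In the acinar-like class 660 UMIs gave 53.8 CPM (49.8 to 58.1), and fibroblast-like cells 35.7 CPM (33.1 to 38.4) from 724 UMIs. Duct-like cells had 42.3 CPM, Schwann-like 40.2, mesothelial-like 33.3, endothelial-like 25.9 and dendritic cell-like cells 23. Mural-like cells had 15.1 CPM, B cell-like 12.7, T cell-like 12.2 and red blood cell-like cells 5.72. The order was graded, and no neighbouring pair in it was apart beyond counting error.

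Against fibroblast-like cells, the *Insig1* level was 0.341 times as high in T cell-like cells (0.221 to 0.504) from 26 UMIs. It was 0.356 times in B cell-like cells (0.162 to 0.68) from 9 UMIs and 0.423 times in mural-like cells (0.155 to 0.926) from 6 UMIs. All 3 intervals lay below 1. Free RNA would give 7.11 of the UMIs in T cell-like cells and 3.35 of those in B cell-like cells. The endothelial-like ratio, 0.726 (0.493 to 1.03), was not apart from 1.

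*Insig2* had another order, with duct-like and mural-like cells at the top. Duct-like cells had 64.6 CPM (51.1 to 80.7) from 78 UMIs and mural-like cells 47.8 CPM (28.8 to 74.7) from 19 UMIs. Schwann-like cells had 40.2 CPM, mesothelial-like 35.3, endothelial-like 33.2, fibroblast-like 30.0 (27.6 to 32.4), B cell-like 25.4 and dendritic cell-like cells 23. Acinar-like cells had 17.2 CPM and T cell-like cells 13.1. Red blood cell-like cells had no *Insig2* UMI, which allows up to 4.29 CPM, and they and T cell-like cells were the neighbouring pair that was apart. The ratio to fibroblast-like cells was 2.16 (1.68 to 2.74) in duct-like, 1.6 (0.954 to 2.51) in mural-like and 0.437 (0.288 to 0.638) in T cell-like cells. Mural-like cells thus stood high for *Insig2*, within counting error of fibroblasts, and low for *Insig1*.

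**Figure D1:**
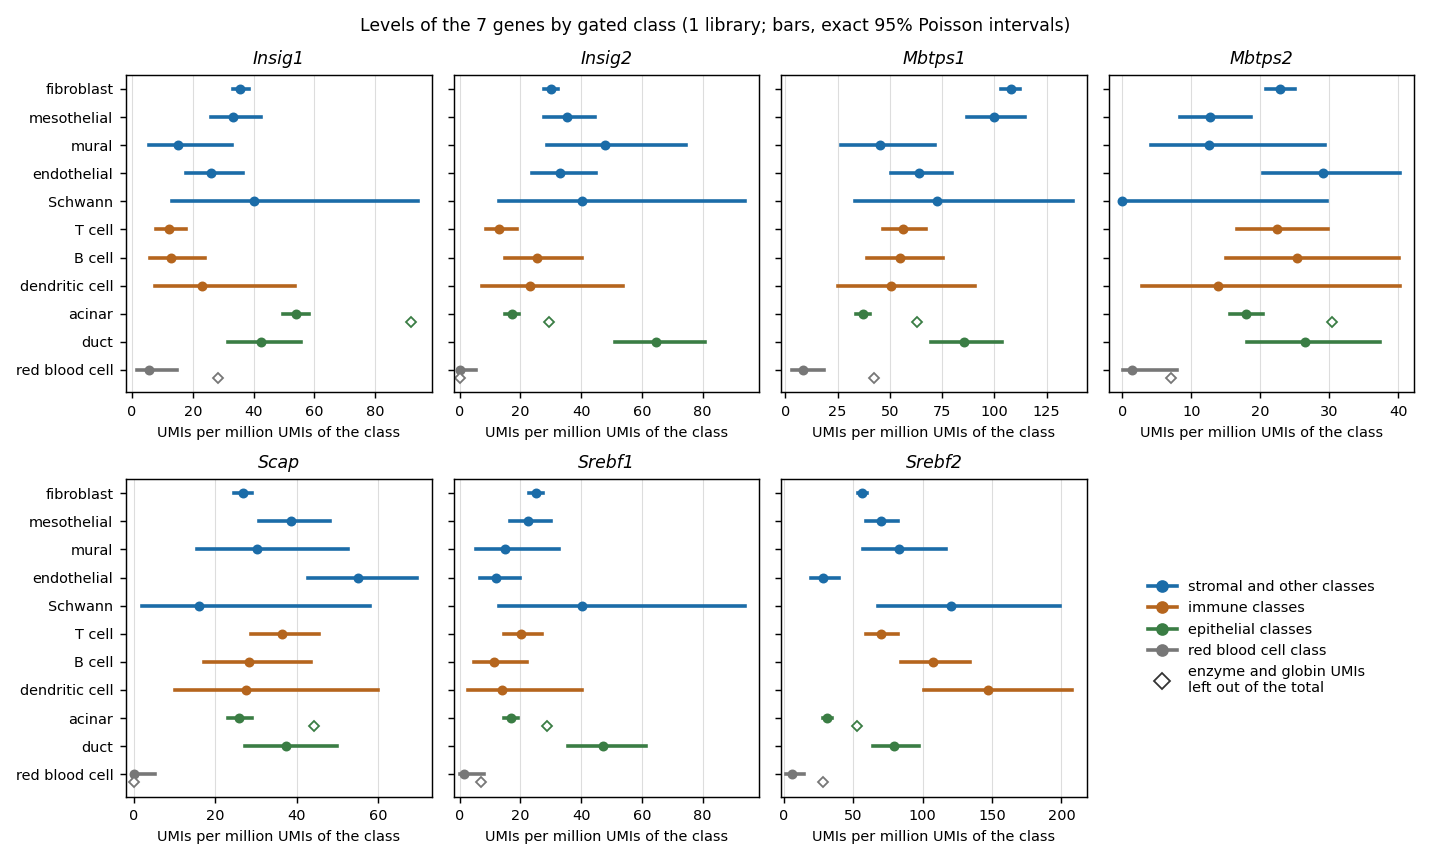
Level of each of the 7 genes in the 11 gated classes of at least 50 cells, in CPM on a linear axis, with exact 95% Poisson intervals as bars. Open diamonds give the acinar and red blood cell levels without enzyme and globin UMIs in the total. *Insig1* was highest in acinar-like cells at 53.8, *Mbtps1* in fibroblast-like cells at 108 and *Srebf2* in dendritic cell-like cells at 147.

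The share of *Insig1* among the UMIs of both *Insig* genes is free of the other genes of a class. It was 75.8% (72.8 to 78.6) in acinar-like, 54.4% (51.6 to 57.1) in fibroblast-like, 39.5% (31 to 48.5) in duct-like and 24% (9.36 to 45.1) in mural-like cells. The odds of *Insig1* relative to fibroblast-like cells were 2.63 (2.17 to 3.19) in acinar-like, 0.549 (0.372 to 0.806) in duct-like and 0.265 (0.0862 to 0.697) in mural-like cells. Over all fibroblasts these 3 classes thus differed from them in the proportion of the pair. The B cell-like share was 33.3%, with odds of 0.42 (0.165 to 0.993), whose interval ended close to 1. In T cell-like cells the share was 48.1% (34.3 to 62.2), so both genes were low there without a shift in their proportion beyond counting error. Mesothelial-like cells with 48.6% and endothelial-like cells with 43.8% were not apart from fibroblasts.

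**Figure D2:**
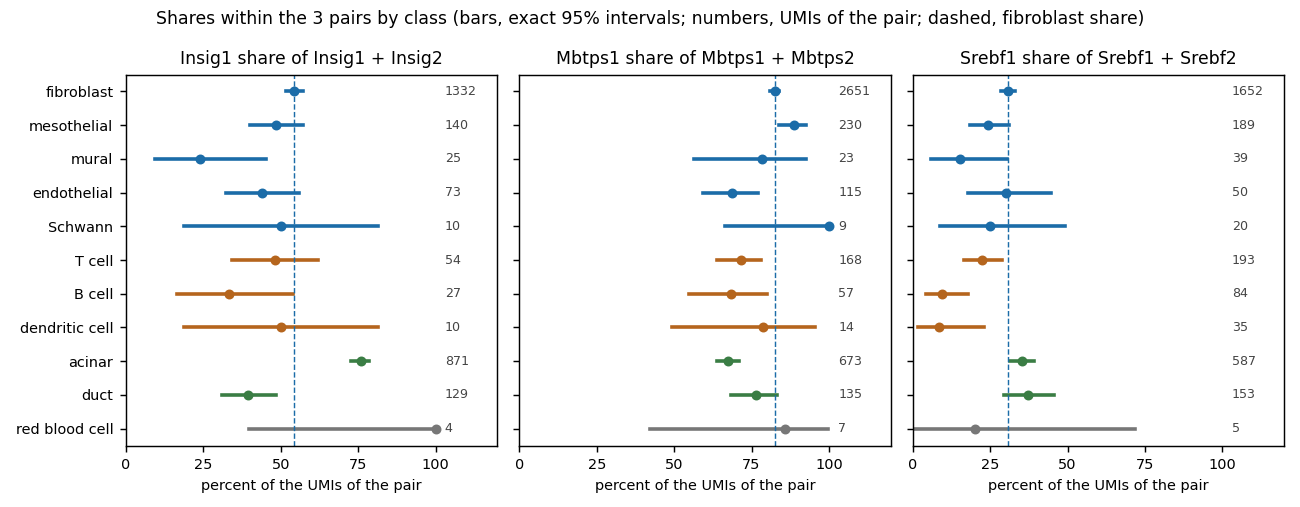
Share of the first gene of each pair among the UMIs of the pair in the 11 classes, in percent, with exact 95% intervals as bars, the UMIs of the pair at the right and the fibroblast share as a dashed line. The *Insig1* share was 24% in mural-like and 75.8% in acinar-like cells, the *Mbtps1* share 88.7% in mesothelial-like cells, and the *Srebf1* share 9.52% in B cell-like cells.

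Within fibroblast-like cells the *Insig* genes went in opposite directions with the number of UMIs per cell. *Insig1* had 45.3 CPM (37.3 to 54.5) in the 1664 cells under 2000 UMIs, 38.1 CPM from 2000 to 5000, 32.2 CPM from 5000 to 10000 and 24.8 CPM (18.8 to 32) in the 176 cells of 10000 UMIs or more. *Insig2* had 20.6 CPM (15.4 to 27.1), 25.4 CPM, 37.5 CPM and 38.9 CPM (31.3 to 47.8) over the same ranges. The *Insig1* share accordingly went from 68.7% (61 to 75.7) to 38.9% (31.1 to 47.2). Between the deepest and the shallowest cells, *Insig2* was at least 1.5-fold higher, as were 23.3% of 11238 genes, and *Insig1*, *Scap* and *Srebf1* were at least 1.5-fold lower, as were 15.5%. *Scap* had 33.6 CPM in the shallowest and 19.2 CPM in the deepest cells, and *Srebf1* 28.7 and 18 CPM. The ratio of deep to shallow cells was 1.08 (0.904 to 1.28) for *Mbtps1*, 1.2 (0.811 to 1.79) for *Mbtps2* and 0.982 (0.768 to 1.25) for *Srebf2*, none apart from 1. The part of doublets and of free RNA in this trend was not tested.

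**Figure D3:**
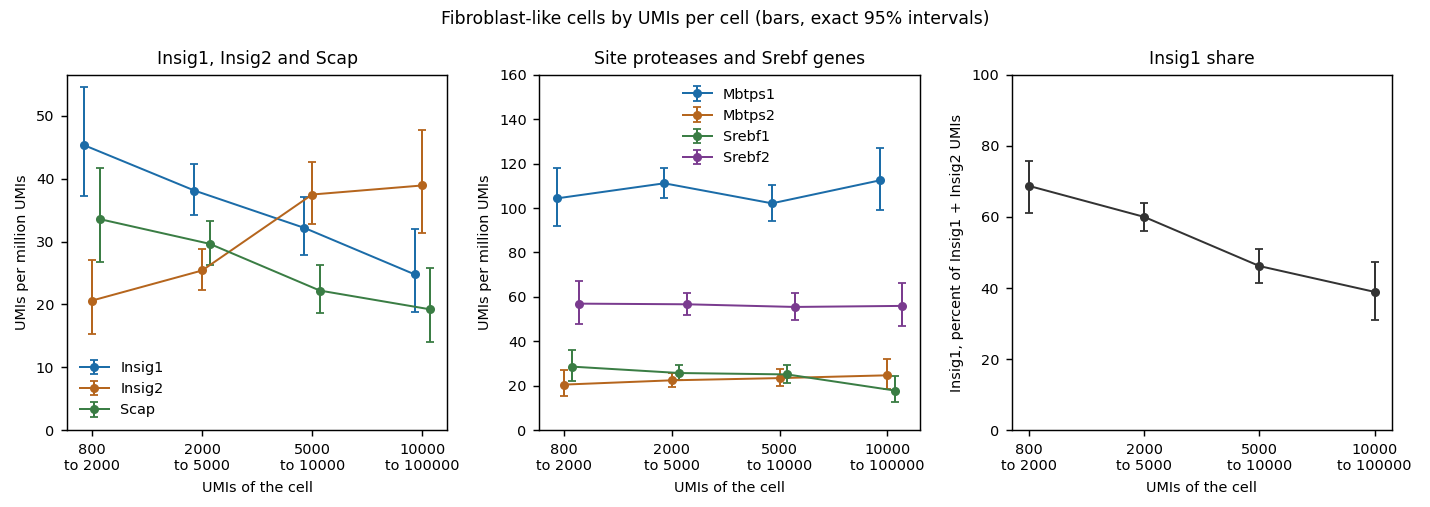
Levels of the 7 genes in fibroblast-like cells, in CPM, and the *Insig1* share of *Insig* UMIs, in percent, over 4 ranges of UMIs per cell, with exact 95% intervals as bars. From the shallowest to the deepest range *Insig1* went from 45.3 to 24.8 CPM, *Insig2* from 20.6 to 38.9 CPM and the share from 68.7% to 38.9%.

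Because classes differed in depth, each ratio was also computed with fibroblast levels taken in the same ranges of UMIs per cell. The fibroblast rates were held fixed here, so these intervals cover the count of the class alone and are too narrow. The *Insig1* ratio was then 0.315 (0.206 to 0.461) in T cell-like, 0.313 (0.143 to 0.594) in B cell-like and 0.427 (0.157 to 0.928) in mural-like cells, all still below 1. The *Insig2* ratio was 0.489 (0.325 to 0.707) in T cell-like and 1.69 (1.33 to 2.11) in duct-like cells. In duct-like cells the *Insig1* ratio, 1.19 (0.874 to 1.58) over all fibroblasts, became 1.63 (1.21 to 2.14). The deepest fibroblast range held only 58 *Insig1* UMIs, so this interval does not settle whether the duct-like ratio lies above 1. Fibroblasts of the depth of duct-like cells would have an *Insig1* share of 40.4%, close to the 39.5% of duct-like cells, so the duct-like shift in the pair was not seen at the same depth. At the depth of acinar-like cells the fibroblast share would be 41.8% and at that of mural-like cells 54.2%, against observed shares of 75.8% and 24%. At the depth of B cell-like cells it would be 62.4%, against 33.3%, and at that of T cell-like cells 59.1%, against 48.1%.

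*Mbtps1*, the site-1 protease gene at chr8:119508156-119558735 on the reverse strand, was highest in fibroblast-like and mesothelial-like cells. Fibroblast-like cells had 2187 UMIs or 108 CPM (103 to 112), and mesothelial-like cells 204 UMIs or 100 CPM (86.7 to 115). Duct-like cells had 85.4 CPM, Schwann-like 72.4, endothelial-like 63.9, T cell-like 56.1 and B cell-like cells 55. Dendritic cell-like cells had 50.6 CPM, mural-like 45.3, acinar-like 37 and red blood cell-like cells 8.58. Of the 9 classes compared, 7 had a ratio to fibroblasts whose interval lay below 1, and none had one above. The ratio was 0.521 (0.43 to 0.626) in T cell-like, 0.511 (0.362 to 0.70) in B cell-like, 0.593 (0.468 to 0.742) in endothelial-like, 0.47 (0.234 to 0.842) in dendritic cell-like and 0.42 (0.249 to 0.666) in mural-like cells. Against fibroblasts of the same depth the endothelial-like ratio was 0.587 and the T cell-like ratio 0.523.

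*Mbtps2*, the site-2 protease gene at chrX:157535371-157598715 on the reverse strand, had another order. Endothelial-like cells had 29.1 CPM (20.4 to 40.3), duct-like 26.5, B cell-like 25.4, fibroblast-like 22.9 (20.8 to 25), T cell-like 22.4 and acinar-like cells 17.9. Dendritic cell-like cells had 13.8 CPM, mesothelial-like 12.7 (8.33 to 18.7) and mural-like cells 12.6, and red blood cell-like cells had 1 UMI. Schwann-like cells had 0 among 124286 UMIs, which allows up to 24.1 CPM, so that a difference from fibroblasts was not detectable at this depth. No neighbouring pair of classes was apart. Mesothelial-like cells, with 26 UMIs, were at 0.557 times fibroblasts (0.36 to 0.827), and endothelial-like cells at 2.28 times mesothelial-like cells (1.34 to 3.94). The gene *Yy2* lies within *Mbtps2* on the same strand, so UMIs of the overlap could belong to either.

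The balance of the proteases set fibroblast-like and mesothelial-like cells apart from T cell-like, B cell-like, endothelial-like and acinar-like cells. *Mbtps1* made up 88.7% (83.9 to 92.5) of protease UMIs in mesothelial-like and 82.5% (81 to 83.9) in fibroblast-like cells. It made up 71.4% (64 to 78.1) in T cell-like, 68.7% (59.4 to 77) in endothelial-like, 68.4% (54.8 to 80.1) in B cell-like and 67.5% (63.8 to 71) in acinar-like cells. Relative to fibroblasts, the odds of *Mbtps1* were 1.66 (1.09 to 2.64) in mesothelial-like, 0.531 (0.371 to 0.769) in T cell-like, 0.466 (0.306 to 0.721) in endothelial-like, 0.46 (0.254 to 0.862) in B cell-like and 0.44 (0.362 to 0.535) in acinar-like cells. Duct-like cells with 76.3%, mural-like cells with 78.3% and dendritic cell-like cells with 78.6% (49.2 to 95.3) were not apart from fibroblasts. Transcripts differ in length and capture, so these shares compare classes and do not rank the proteases.

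**Figure D4:**
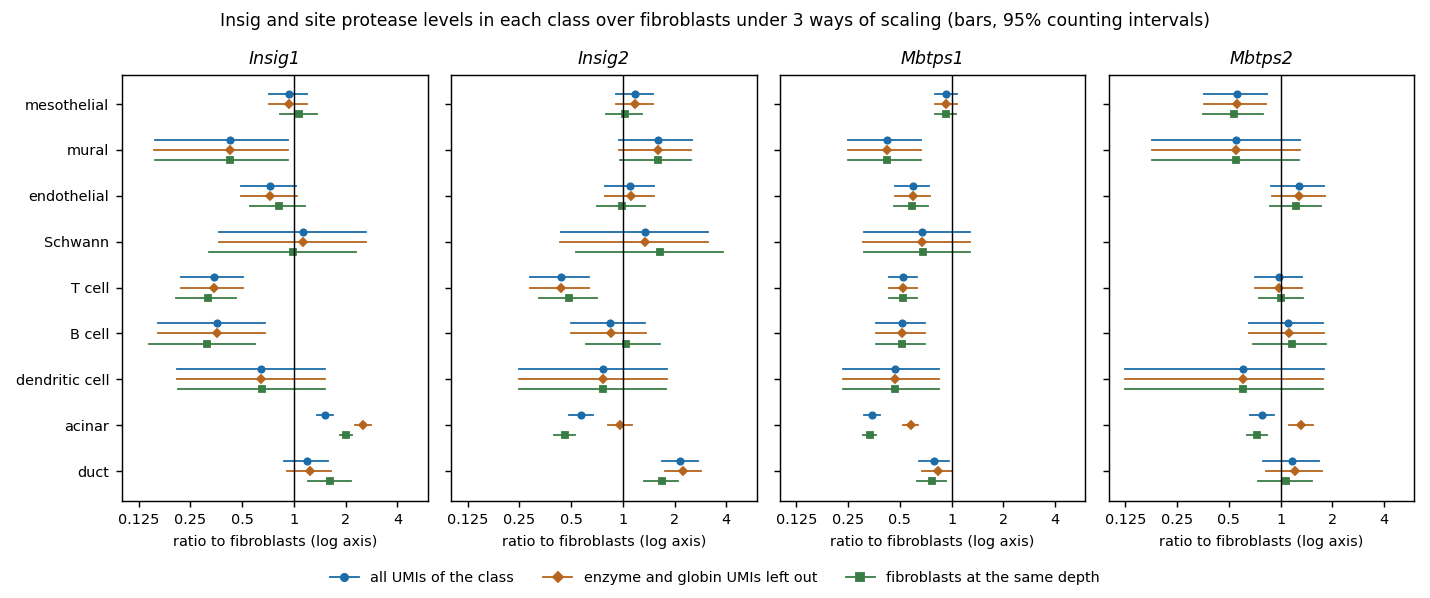
Ratio of the level in each of 9 classes to that in fibroblast-like cells for the *Insig* and *Mbtps* genes, on a log axis, over all UMIs, without enzyme and globin UMIs, and against fibroblasts of the same depth, with 95% counting intervals as bars (a class without UMIs is not drawn). At the same depth the bars cover the count of the class alone. The T cell-like *Insig1* ratio was 0.341 over all UMIs and 0.315 at the same depth, while the acinar-like one was 1.51 over all UMIs and 2.54 without enzymes.

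*Scap* was highest in endothelial-like cells. It lies at chr9:110333288-110384950 on the forward strand and is the gene that the study floxed. Like *Insig2*, it overlaps an entry of unknown type on the other strand, and the part of that overlap in its UMIs was not tested. Endothelial-like cells had 68 UMIs or 55 CPM (42.7 to 69.7), 1.42 times the next class, mesothelial-like cells (1.01 to 1.99), and 2.06 times fibroblast-like cells (1.58 to 2.65). Mesothelial-like cells had 38.7 CPM, duct-like 37.3, T cell-like 36.5, mural-like 30.2, B cell-like 28.2, dendritic cell-like 27.6, fibroblast-like 26.7 and acinar-like cells 25.9. Schwann-like cells had 2 UMIs, and red blood cell-like cells none, which allows up to 4.29 CPM. The ratio to fibroblasts was 1.45 (1.13 to 1.84) in mesothelial-like and 1.37 (1.06 to 1.73) in T cell-like cells, and the latter became 1.26 (0.995 to 1.57) against fibroblasts of the same depth, no longer apart from 1.

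Relative to *Scap*, *Insig* transcripts were few in T cell-like and endothelial-like cells. Fibroblast-like cells had 2.46 *Insig1* and *Insig2* UMIs for each *Scap* UMI, acinar-like cells 2.74 and duct-like cells 2.87. T cell-like cells had 0.692, from 54 *Insig* and 78 *Scap* UMIs, and endothelial-like cells 1.07, from 73 and 68. The odds relative to fibroblasts were 0.282 (0.193 to 0.41) and 0.437 (0.305 to 0.627), and those of mesothelial-like cells 0.721 (0.533 to 0.98). For *Srebf* UMIs per *Scap* UMI the odds were 0.241 (0.162 to 0.358) in endothelial-like and 0.606 (0.511 to 0.719) in acinar-like cells.

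*Srebf2*, which encodes SREBP-2, was high in dendritic cell-like, Schwann-like and B cell-like cells and low in endothelial-like cells. Dendritic cell-like cells had 32 UMIs or 147 CPM (101 to 208), Schwann-like cells 15 or 121 CPM (67.5 to 199) and B cell-like cells 76 or 107 CPM (84.5 to 134). Mural-like cells had 83 CPM, duct-like 79.6, T cell-like 70.2 (59.4 to 82.3), mesothelial-like 70.1 and fibroblast-like cells 56.3 (53.1 to 59.7). Acinar-like cells had 31.1 CPM, endothelial-like 28.3 (19.7 to 39.4) and red blood cell-like cells 5.72. The ratio to fibroblasts was 2.62 (1.78 to 3.71) in dendritic cell-like, 2.14 (1.2 to 3.55) in Schwann-like, 1.9 (1.49 to 2.4) in B cell-like and 0.503 (0.348 to 0.703) in endothelial-like cells. The endothelial-like class was thus the highest of the 11 for *Scap* and, red blood cells aside, among the lowest for *Srebf2*, within counting error of acinar-like cells. The 4 classes highest in *Srebf2* were also the 4 highest in *Malat1*, a nuclear RNA. It was at 59004 CPM in dendritic cell-like, 33796 in mural-like, 19793 in Schwann-like and 16527 in B cell-like cells, against 11484 CPM in fibroblast-like cells. The other classes did not all follow. Duct-like and mesothelial-like cells, above fibroblasts in *Srebf2*, had less *Malat1*, at 8967 and 7232.5 CPM. Endothelial-like cells, low in *Srebf2*, had 10516 CPM, and acinar-like cells were low in both, with 3819 CPM of *Malat1*. The part of nuclear RNA in the *Srebf2* levels was not tested. *Srebf2* lies at chr15:82147181-82205379 on the forward strand. It overlaps the microRNA gene *Mir33* and *Gm49502*, an entry of unknown type, on the same strand, and the part of these in its UMIs was not tested.

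*Srebf1* took a small share of the *Srebf* UMIs in the B cell-like and dendritic cell-like classes, where *Srebf2* was high. Duct-like cells were highest with 47.2 CPM (35.8 to 61.2), then Schwann-like with 40.2 from 5 UMIs and fibroblast-like cells with 25.1 (22.9 to 27.4). Mesothelial-like cells had 22.5 CPM, T cell-like 20.1, acinar-like 16.8, mural-like 15.1, dendritic cell-like 13.8, endothelial-like 12.1, B cell-like 11.3 and red blood cell-like cells 1.43. The share of *Srebf1* among *Srebf* UMIs was 30.8% (28.6 to 33.1) in fibroblast-like, 22.3% (16.6 to 28.8) in T cell-like, 9.52% (4.2 to 17.9) in B cell-like and 8.57% (1.8 to 23.1) in dendritic cell-like cells. The odds relative to fibroblasts were 0.237 (0.0978 to 0.495) in B cell-like and 0.211 (0.0411 to 0.678) in dendritic cell-like cells. *Srebf1* lies at chr11:60199089-60222581 on the reverse strand. It overlaps *Rai1* on the other strand and the microRNA genes *Mir6921* and *Mir6922* on its own. Whether the counting used strand is not given in the sources used here, and the part of these overlaps in the *Srebf1* UMIs was not tested.

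Digestive enzyme transcripts took 41.2% of the UMIs of acinar-like cells, against 1.09% in fibroblast-like and 5.33% in duct-like cells. Leaving enzyme and globin UMIs out of the totals moved the median log2 ratio of all genes between acinar-like and fibroblast-like cells from -0.72 to -0.09. *Insig1* then had 91.7 CPM (84.8 to 99) in acinar-like cells, 2.54 times fibroblasts (2.28 to 2.83), against 1.51 times (1.36 to 1.68) over all UMIs. *Mbtps1* was lower under both totals, at 0.344 (0.31 to 0.38) and 0.578 times (0.522 to 0.64), whereas *Insig2* at 0.967 times (0.823 to 1.13) was no longer apart. *Scap* came to 1.63 times (1.42 to 1.88), and *Mbtps2* turned from 0.781 (0.662 to 0.92) to 1.31 times (1.11 to 1.55). The 338 acinar-like cells of 10000 UMIs or more had 56.9 *Insig1* CPM and the 565 others 41.2 CPM. The *Insig1* direction held under both totals, and that of *Mbtps2* did not.

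Duct-like cells, the other epithelial class, rest on 60 cells, 31 of which had 10000 UMIs or more. Without enzyme UMIs their *Insig1* level was 0.487 times that of acinar-like cells (0.359 to 0.649), their *Insig2* level 2.33 times (1.77 to 3.04) and their *Mbtps1* level 1.43 times (1.14 to 1.78). The 29 shallower cells had 12 *Insig1* and 7 *Insig2* UMIs, and the deeper cells 39 and 71. Most UMIs of both genes thus came from the deep cells, which hold more UMIs each. The part of the deep cells in all UMIs of the class is not given here, so these counts have no background. The free RNA estimate, which rests on enzyme transcripts alone, was 44.3% of the library profile here. The collagen transcript *Col1a1*, at 11761 CPM in fibroblast-like cells, was at 307 CPM in duct-like cells. T cell-like cells, with an estimate of 8.86%, had more of it, at 392 CPM. The 44.3% may therefore overstate free RNA in duct-like cells.

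Members at least 2-fold from fibroblast-like cells were also counted, beside the share of all genes past the same cut. Counts out of 7 genes are coarse and are not read here as a trait of the 7. In T cell-like cells *Insig1* and *Insig2* were lower, as were 33.7% of 14467 genes, and none of the 7 was higher, against 19.0% of genes. In B cell-like cells *Insig1* and *Srebf1* were lower, against 35.2%, and none higher, against 18.9%. In mural-like cells *Insig1* and *Mbtps1* were lower, against 25.1%, and none higher, against 16.8%. The low *Insig1* was shared by these 3 classes. In endothelial-like cells *Scap* was higher, against 17.5%, and *Srebf1* lower, against 18.1%. In dendritic cell-like cells *Srebf2* was higher, against 17.6%, and *Mbtps1* lower, against 46.3%. In Schwann-like cells *Srebf2* was higher, against 19.9% of genes higher and 35.3% of genes lower, and *Mbtps2*, lower by this count with 0 UMIs, could not be shown to differ at this depth. Mesothelial-like cells had none past 2-fold, against 14.4% of genes higher and 16.1% lower, so that with 7 genes this count lay near the background. In duct-like cells *Insig2* was higher, against 22.8%, and none lower, against 19.1%. In acinar-like cells *Mbtps1* was lower, against 44.9%, and none higher, against 11.1%, while without enzyme UMIs *Insig1* was higher, against 18.2%, and none lower, against 25.1%. In red blood cell-like cells all 7 were lower, against 85.1%, and none higher, against 3.97%, over totals that were 78.6% globin. Without enzyme and globin UMIs the interval of the ratio held 1 for *Insig1* (0.782, 0.212 to 2.01), *Srebf2* (0.495, 0.135 to 1.27), *Srebf1* and *Mbtps2*. It stayed below 1 for *Scap*, *Insig2* and *Mbtps1*. Over the 63 ratios outside red blood cells, with all UMIs in the totals, 14 intervals lay above 1 and 19 below 1, without adjustment for their number. The share of all genes with such intervals is not given here, so these counts have no background. Without enzyme and globin UMIs the intervals of acinar-like *Srebf1*, *Srebf2* and *Insig2* and of duct-like *Mbtps1* held 1. Those of acinar-like *Scap* and *Mbtps2* then lay above 1.

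Fibroblast-like cells, the bulk of the library, were divided by subset markers. The 2002 cells with at least 2 of *Pi16*, *Pcolce2*, *Dpp4* and *Sema3c* and the 392 cells with both *Mfap4* and *Meox2* had medians of 3683 and 3604.5 UMIs. *Srebf2* was at 62.9 CPM (57.9 to 68.2) in the *Pi16* subset and 36.6 CPM (27.9 to 47.1) in the *Mfap4* subset, a ratio of 1.72 (1.32 to 2.28). *Srebf1* was at 27.9 and 17.7 CPM, a ratio of 1.58 (1.07 to 2.4). The *Insig* and *Mbtps* genes and *Scap* had ratios between 0.832 and 1.23, none apart from 1. The 153 cells with both *Rspo3* and *Cxcl14* had *Srebf2* at 63.8 CPM, 1.74 times the *Mfap4* subset (1.11 to 2.7).

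In the 211 fibroblast-like cells with at least 3 of 6 cell cycle genes, *Insig1* was at 23.1 CPM against 36.2 CPM in the 5035 cells with none, a ratio of 0.639 (0.424 to 0.927). *Srebf2* was at 41.4 and 56.6 CPM, a ratio of 0.731 (0.542 to 0.967). The cycling cells had a median of 4565 UMIs against 2635, and *Insig1* declined with depth, so that the part of depth in its difference was not tested.

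In the immune classes the counts allowed few divisions. The 116 T cell-like cells with *Cd4* and neither *Cd8a* nor *Cd8b1* had 36 *Srebf2* UMIs or 106 CPM (74.5 to 147). The 297 cells with *Cd8a* or *Cd8b1* and no *Cd4* had 48 UMIs or 55.6 CPM (41 to 73.7), 0.522 times as much (0.332 to 0.828). Median depths were 2185.5 and 2310 UMIs, and for the other 6 genes the interval of the ratio held 1, at ratios between 0.522 and 1.45. *Insig1* was low in both, with 4 and 12 UMIs. In the dendritic cell-like class, 48 of 55 cells had at least 2 of *Ccr7*, *Fscn1* and *Ccl22*, genes of mature migrating cells that the gate also used, and these held 31 of the 32 *Srebf2* UMIs. T cell-like cells had 0.654 times the *Srebf2* level of B cell-like cells (0.493 to 0.874) and 0.958 times the *Insig1* level (0.435 to 2.32).

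Genes that act with the 7 were described from lists, again against fibroblast-like cells. Of 10 COPII coat genes, which build the vesicles that carry SCAP, T cell-like cells had 4 at least 2-fold lower, namely *Sar1a*, *Sec23a*, *Sec24d* and *Sec31a*, and 0 higher, where 33.7% of all genes were lower, with a median log2 ratio of -0.81 against -0.11 over all genes. B cell-like cells had 4 lower, which were those named, against 35.2% of genes, so both counts lay near the background. Dendritic cell-like cells had 8 lower, against 46.3%, with a median of -1.43 against -0.72. *Sec24d*, a subunit that binds cargo, was at 221 CPM in fibroblast-like, 20.1 in T cell-like and 14.1 in B cell-like cells. Mesothelial-like cells, the nearest to fibroblasts in *Mbtps1*, had 0 of the 10 lower, against 16.1% of genes.

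Among other substrates of the site proteases, *Creb3l1*, an ER-anchored factor known from collagen-secreting cells, was also highest in mesothelial-like and fibroblast-like cells. *Creb3l1* was at 179 CPM in fibroblast-like and 240.2 CPM in mesothelial-like cells, then at 87.9 CPM in duct-like and 56.4 CPM in acinar-like cells. It was at 16.2 CPM in endothelial-like, 8.47 in B cell-like, 5.61 in T cell-like and 5.03 CPM in mural-like cells. *Creb3l2* was at 257 CPM in Schwann-like cells from 32 UMIs, 2.5 times fibroblasts (1.7 to 3.54). *Atf6*, a sensor of ER stress, was instead highest in acinar-like cells at 147 CPM and had 113 CPM in B cell-like against 51.2 CPM in fibroblast-like cells. Of 7 genes of this list that were counted, T cell-like cells had 4 at least 2-fold lower and 0 higher, and B cell-like cells 4 lower and 1 higher, against 33.7% and 35.2% of all genes lower, with medians of -1.38 and -1.76 against -0.11 and -0.16. The lower genes of both classes include *Creb3l3*, which had 0 UMIs there and was counted only through its 65 UMIs in fibroblast-like cells. The interval of its ratio was 0 to 0.554 in T cell-like cells and 0 to 1.67, which holds 1, in B cell-like cells.

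Of 10 genes for retention, ubiquitination and degradation of INSIG, T cell-like cells had 3 lower and 0 higher, a share of lower genes no greater than the 33.7% over all genes. *Erlin1*, of the ER membrane, was at 147 CPM in dendritic cell-like and 55 CPM in B cell-like cells, against 26.1 CPM in fibroblast-like and 5.61 CPM in T cell-like cells. *Erlin2*, its partner, was at 53.3 CPM in fibroblast-like, 16.9 in B cell-like, 4.6 in dendritic cell-like and 4.21 CPM in T cell-like cells. *Rnf145*, an ER ubiquitin ligase, was at 82.7 CPM in fibroblast-like and 72 CPM in T cell-like cells, and at 17.1 CPM in acinar-like, 15.1 CPM in mural-like and 9.95 CPM in duct-like cells.

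In dendritic cell-like cells *Idi1*, an isomerase of cholesterol synthesis, was at 101 CPM from 22 UMIs, against 22.9 CPM in fibroblast-like cells. Of 23 genes of cholesterol synthesis and uptake 6 were at least 2-fold higher and 5 lower there, against 17.6% and 46.3% of all genes, with a median of 0.51 against -0.72 over all genes. Of 12 genes of fatty acid synthesis 11 were lower, against that 46.3%, with a median of -1.98. The counts were small: *Acacb* and *Gpam* had 0 UMIs and *Acss2*, *Elovl6*, *Scd1* and *Fads1* 1 each, among 217257 UMIs of the class. The interval of the ratio held 1 for *Acss2* (0.0123 to 2.74), *Acacb* (0 to 6.87) and *Acaca* (0.176 to 1.05). Dendritic cell-like cells thus had high *Srebf2*, with *Idi1* among the 6 cholesterol genes that were higher, and few transcripts of fatty acid synthesis at this depth.

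Schwann-like cells had *Hmgcs1* at 177 CPM from 22 UMIs, against 74.5 CPM in fibroblast-like cells, with 7 of 23 cholesterol genes higher and 4 lower, against 19.9% and 35.3% of all genes, and a median of 0.08 against -0.12. B cell-like cells, where *Srebf2* was also high, had 0 higher and 7 lower, against 18.9% and 35.2% of all genes, with a median of -0.59 against -0.16, while *Scd1*, a fatty acid desaturase, was at 198 CPM from 140 UMIs against 42.7 CPM. In T cell-like cells 6 cholesterol genes were lower and 1 higher, against 33.7% and 19.0% of all genes, with a median of -0.36 against -0.11, and *Hmgcs1* was at 17.8 CPM. The shares of lower genes in these lymphoid classes did not exceed those over all genes. Duct-like cells had 11 cholesterol genes higher and 0 lower, against 22.8% and 19.1% of all genes, with a median of 0.87 against 0.25, and 6 of 12 fatty acid genes higher and 1 lower.

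Endothelial-like cells, with the most *Scap* and little *Srebf2*, had 2 cholesterol genes higher and 4 lower, against 17.5% and 18.1% of all genes, with a median of -0.27 against 0.13. *Stard4*, a sterol carrier, was at 97.9 CPM there against 18.3 CPM in fibroblast-like cells. Of 7 genes of LXR and sterol efflux 3 were higher and 0 lower, against those shares, with a median of 0.88 against 0.13. The efflux pump *Abca1* was at 256 CPM against 109, and *Mylip*, a ubiquitin ligase induced by LXR, at 138 CPM against 39.3 CPM.

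Immediate early and heat shock transcripts, which dissociation can induce, also differed between classes. The 10 listed summed to 13714 CPM in fibroblast-like, 14619 in endothelial-like, 16469 in mural-like, 3730.1 in acinar-like, 2128 in B cell-like and 1847 CPM in T cell-like cells. T cell-like and B cell-like cells, low in *Insig1*, and acinar-like cells, highest in its CPM, were all low here, while mural-like cells were not. The part of dissociation in the levels of the 7 genes was not tested.

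For each of the 7, the 3 genes with the most similar pattern over the 11 classes were found among 8473 genes with at least 500 UMIs, by Pearson correlation of log2(CPM + 10). For *Insig1* these were *Xbp1* (0.935), *Aldh6a1* (0.93) and *Ntn1* (0.926), and for *Insig2* *Tmx2* (0.983), *2210016L21Rik* (0.967) and *Kctd3* (0.965). For *Mbtps1* they were *Tmed9* (0.98), *Tm9sf4* (0.97) and *Sra1* (0.969), and for *Mbtps2* *Gm1976* (0.944), *Iars* (0.94) and *Nup210l* (0.939). *Scap* was most like *Cdv3* (0.973), *Ube2e1* (0.956) and *Glrx2* (0.956), *Srebf1* like *Dync2h1* (0.935), *Appl2* (0.934) and *Rpp25l* (0.925) and *Srebf2* like *Ppp2r3c* (0.959), *Cog4* (0.946) and *Psmg4* (0.933). The 11 classes share 1 library, and nearly all genes are low in red blood cell-like cells, so these values are descriptions.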

How the data were processed

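The Scap f/f library, prepared with a 3′ droplet kit, was analysed. Per the labels and the methods of the study, Cell Ranger 7.1.0 with the mm10 reference and default settings was used, and whether intronic reads were counted is not given in the sources used here. The authors deposited counts, that is whole UMIs for each gene in each barcode, with no scaling. The methods apply an upper limit of 10000 UMIs and ambient RNA removal. Here 818 kept cells lay at or above that limit, and it was tried as an alternative.

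Sums over gated classes were made with Python 3.11.15 (numpy 2.4.6; scipy 1.17.1; pandas 2.3.3). A gate required at least 3 of 10 markers (5 for fibroblasts), at least 2 times those of any other class, and more markers than of the fibroblast list. The acinar and red blood cell gates required 20% of a cell's UMIs in 16 enzyme or 4 globin genes, and acinar cells had under 10% of the median fibroblast-marker share of fibroblasts. Cut points were set from marker counts after these were seen, never from the 7 genes. The 7 genes, markers and lists were chosen with earlier results of these data known. Doublets were kept; Scrublet in scanpy 1.11.5 marked 537 cells (4.91%), and their removal was an alternative.

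Intervals are exact at 95%: Poisson for levels, Clopper-Pearson for shares, conditional for ratios and odds. Ratios against fibroblasts of the same depth instead have the Poisson interval of the class count, with the fibroblast rates held fixed. The Poisson and conditional ratio intervals were checked on simulated data. A count of 0 is given with the level that 3 counts would have. Genes entered the 2-fold counts with at least 20 UMIs over both classes. The free RNA rate of a class is its enzyme share over that of the library (for acinar cells, its fibroblast-marker share). Genes named are the 7, list genes at least 2-fold from fibroblasts or needed for a result, and the 3 most like each. Gene coordinates are from GENCODE (GRCm38) and start sequences from RefSeq (GRCm38.p6). Alternatives changed the limits on UMIs and mitochondrial share, the gates, the total, the free RNA and the mean.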

Additional observations from a re-analysis of the deposited data

Results flagged for a closer look

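UMIs of the 7 genes were also present in barcodes that no comparison used. The 842 barcodes outside the limits on UMIs and mitochondrial share held 461 of them, or 197 CPM (95% interval 179.6 to 216). The 1643 kept cells that passed no gate held 2099, or 275 CPM (264 to 287). The 67 cells of the 5 classes under 50 cells held 40, or 157 CPM (112 to 213). All 3 lay above the 22.9 CPM (13.1 to 37.2) of the red blood cell-like class. Globin transcripts took 78.6% of the UMIs of that class, which lowers its other levels, so it is not a like floor. In ungated cells *Insig1* was at 33.6 CPM and *Mbtps1* at 70.4 CPM. With 1 library, no group of samples could be searched for an outlying sample or compared with another.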

How the results depend on the processing

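Of 17 values, 10 ratios followed through 9 settings and 7 shares through 6, 14 stayed within their counting interval under each setting run for them, and 3, of acinar-like and duct-like cells, did not. With an upper limit of 10000 UMIs, which removes the deepest cells, the *Insig1* ratio of acinar-like to fibroblast-like cells was 1.11 and the *Insig2* ratio of duct-like cells 1.57. The *Insig1* share of duct-like cells was then 63.2%, against 56.3% in fibroblast-like cells. It thus turned from below the fibroblast share to above it, on few UMIs. The *Scap* ratio of duct-like cells turned from 1.4 to 0.701. Without enzyme and globin UMIs in the total, the acinar-like ratio of *Insig1* was 2.54, and those of *Srebf1* and *Mbtps2* turned to 1.13 and 1.31. Fibroblasts at the same depth, a setting chosen after seeing the data, gave an acinar-like *Insig1* ratio of 2.01, and the mean of per-cell CPM gave 1.12. Subtracting the library profile, at a rate that rests on enzyme transcripts alone, gave a duct-like *Insig2* ratio of 3.12. Beyond the cells or UMIs that a setting removes by construction, the cause was not tested. Over all 155 values, 63 of 1259 recomputed values moved or reversed. No paired analysis was possible because there is 1 library, and no replicate could be left out. Depth limits the Schwann-like and dendritic cell-like classes most, with 41 and 65 UMIs of the 7 genes. A lower limit of 1500 UMIs left 33 Schwann-like cells, and 1 more marker in each gate left 29 dendritic cell-like cells.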

Other observations

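Among the classes of under 50 cells, the 7 endocrine-like cells had 5 *Insig2* UMIs, or 66.4 CPM (95% interval 21.6 to 155), and 0 *Insig1* UMIs among 75325. The 21 macrophage-like cells had 1 *Insig1*, 5 *Mbtps1* and 3 *Scap* UMIs. These counts are too few for a comparison.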
